A study of Rattus norvegicus with 14 samples.

Results

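The genes described here belong to complement and to antigen presentation, and they were followed in the motor cortex of rats with a spinal cord injury (SCI). The set was a list of 42 gene names: 20 of complement, 14 of the class I pathway and 8 of the class II pathway. A gene counted as measured where a probe set carried its symbol and no other, and where several did, the one with the highest mean over all arrays was kept. By that rule 36 of the 42 were measured, among 22093 genes with such a probe set. The other 6 had only probe sets shared with a further symbol and are given no value: C2 and Cfb, which share 1 probe set, and Cd59, RT1-A2, RT1-CE5 and RT1-T24-4.

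RNA was measured on 14 Affymetrix whole-transcript arrays, 7 labelled MSC and 7 labelled vehicle. All animals were male rats with SCI, and all were injected with cyclosporine A every day. Cyclosporine A is an immunosuppressant that restrains T cells, so neither group shows these immune genes without it. Rats were infused through the femoral vein 24 hours after the injury, with MSC in one group and with vehicle in the other, and motor cortex was taken at day 3 after the infusion. MSC usually stands for mesenchymal stem or stromal cells, and the sources used here give neither the origin, dose and species of the cells nor the strain and age of the rats. There was no uninjured group, so the comparison is between infusions in injured animals. The labels do not tie arrays to separate rats, so the p-values speak only for the spread among these 14 samples, some of which may be technical. MSC replicate 7 carries vehicle in its free-text description but MSC in its title, source and treatment, and was kept as MSC.

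Complement is a cascade of plasma and tissue proteins that tags surfaces with fragments of C4 and C3 and can end in a membrane pore. In the brain microglia make C1q, astrocytes make much of the C4, and complement takes part in the removal of synapses. Class I molecules pair with beta-2-microglobulin and show peptides that the proteasome cuts and the TAP transporter carries. Class II molecules show peptides from engulfed material, are guarded by the invariant chain Cd74, and in the brain are found mainly on microglia, on macrophages at its borders and on infiltrating cells. The rat genes of both classes carry the prefix RT1, the name of the rat major histocompatibility complex.

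The 300 bases around the start of each gene, 250 before and 50 after it, were read from RefSeq sequences of assembly GRCr8, where 31 of the 42 genes had an entry. The promoters of C4a and C4b, neighbouring copies of the C4 gene, are shown because their probe sets varied together across arrays, as given further on. Capitals mark the longest run that both share, of 125 bases, and an alignment of the windows had 280 identical, 11 mismatched and 18 gapped positions. C4a lies at chr20:4010107-4010406 and C4b at chr20:4201729-4202028, both on the plus strand.
C4a: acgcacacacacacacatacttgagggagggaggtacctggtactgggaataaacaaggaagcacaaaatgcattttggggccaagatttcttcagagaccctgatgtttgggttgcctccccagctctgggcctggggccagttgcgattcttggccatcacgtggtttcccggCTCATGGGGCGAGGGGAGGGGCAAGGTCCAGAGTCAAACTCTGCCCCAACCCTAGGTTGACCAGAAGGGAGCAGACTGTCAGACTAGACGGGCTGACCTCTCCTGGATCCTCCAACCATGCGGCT
C4b: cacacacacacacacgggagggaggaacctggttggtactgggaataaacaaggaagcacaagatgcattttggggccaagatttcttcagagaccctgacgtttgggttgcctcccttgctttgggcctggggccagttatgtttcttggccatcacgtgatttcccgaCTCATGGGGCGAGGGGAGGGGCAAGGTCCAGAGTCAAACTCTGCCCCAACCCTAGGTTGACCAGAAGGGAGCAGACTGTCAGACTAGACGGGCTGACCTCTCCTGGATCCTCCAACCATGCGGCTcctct

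Genes of both classes are known to be switched on through an X box and a Y box, bound by RFX and NF-Y and served by the coactivators Ciita for class II and Nlrc5 for class I. Interferons act through an element called ISRE. The promoters of RT1-Da and RT1-Ba, alpha chains of the 2 classical class II molecules, and of B2m are shown with these motifs in capitals. RT1-Da, at chr20:4515165-4515464 on the plus strand, held an X box, the first run of capitals, at -86 to -76 and the Y box CTGATTGG at -52 to -45 from the start. RT1-Ba, at chr20:4576807-4577106 on the plus strand, held TGACGTCA, the X2 box or cyclic AMP element, at -69 to -62 and CTGATTGG at -46 to -39. B2m, at chr3:129549080-129549379 on the plus strand, held an ISRE (TTTC, any 2 bases, TTTC) read on the minus strand at -150 to -141.
RT1-Da: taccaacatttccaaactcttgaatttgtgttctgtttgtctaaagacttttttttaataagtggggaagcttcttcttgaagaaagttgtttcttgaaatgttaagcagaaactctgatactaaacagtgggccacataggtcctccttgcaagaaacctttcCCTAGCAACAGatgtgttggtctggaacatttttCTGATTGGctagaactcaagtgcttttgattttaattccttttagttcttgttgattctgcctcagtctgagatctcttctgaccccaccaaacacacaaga
RT1-Ba: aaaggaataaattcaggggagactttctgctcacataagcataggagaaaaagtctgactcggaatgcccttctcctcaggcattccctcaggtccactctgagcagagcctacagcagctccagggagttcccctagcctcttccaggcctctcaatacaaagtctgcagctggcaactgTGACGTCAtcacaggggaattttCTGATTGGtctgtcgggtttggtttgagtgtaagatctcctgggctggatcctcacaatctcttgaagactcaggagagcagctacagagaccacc
B2m: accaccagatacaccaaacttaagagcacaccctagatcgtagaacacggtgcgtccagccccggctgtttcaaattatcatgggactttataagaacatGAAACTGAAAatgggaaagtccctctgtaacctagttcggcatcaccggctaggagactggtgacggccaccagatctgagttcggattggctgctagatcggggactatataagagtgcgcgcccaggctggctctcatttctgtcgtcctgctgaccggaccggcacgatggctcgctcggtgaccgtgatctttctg

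Across the set, with both strands searched, CTGATTGG was found in 9 of the 31 promoters against 3.5% of 33469 promoters of all genes. The 9 were RT1-Da, RT1-Db1, RT1-Ba, RT1-Bb, RT1-A1, RT1-A2, RT1-CE5, RT1-S3 and Psmb9. The ISRE was found in 7 against 3.92%: B2m, RT1-S3, Tap1, Tap2, Tapbp, Psmb8 and Psme2, which all serve class I. The full X box, as in RT1-Da, was found only in RT1-Da among the set, against 0.155% of all promoters, and TGACGTCA only in RT1-Ba, against 1.83%. A looser X box, AGNAACNGA, was found in RT1-Da, RT1-Db1, RT1-Bb and Tap1, 4 of 31 against 5.28%. The interferon gamma element TTCNNNGAA was found in C1qa and Psmb8, 2 of 31 against 8.87%, and an NF-kappaB motif (GGGA, any 4 bases, CC) in 14 of 31 against 19.3%. A match describes letters and not binding, the short AGCAAC and GATTGG lie within the longer X and Y boxes, and neighbouring RT1 genes are related copies.

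Medians per array ran from 5.79 to 5.92 (log2), and correlations between arrays from 0.99 to 0.997 across probe sets. Cortical neuron markers were present, with 5 of 5 measured ones above every array's median. Choroid plexus markers averaged 9.06 in MSC replicate 4 and 9.01 in vehicle replicate 2, against 5.49 to 6.21 elsewhere. Ttr, one of them, which encodes transthyretin, stood at 16.9 and 16.8 in those arrays and at 6.63 to 10.01 in the other 12. Meningeal fibroblast markers averaged 9.46 in MSC replicate 2 and 9.20 in vehicle replicate 2, against 8.02 to 8.54 elsewhere. These 3 arrays thus stand apart in choroid plexus markers, meningeal markers or both. The differences of C7, Serping1, C1qa, Cfd, RT1-S3, RT1-A1, Tap1, Cd74 and RT1-Da are also given without all 3, a choice made after the data were seen. Lymphocyte markers were dim in 7 of 10 and neutrophil markers in 4 of 5, where dim means that both group means lay below the lowest array median. The dap spike-in control read 7.45 to 8.12 in replicates 6 and 7 of each group and 8.35 to 9.92 in the rest, a split that no label names and that is balanced between groups.

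The question was whether infused MSC changed these genes in the cortex, and in a limma fit over all 68842 probe sets 0 of the 36 genes passed an adjusted p of 0.05. Of all probe sets 0 passed as well (0.0%). At an unadjusted p below 0.05 there were also 0 of the 36, against 3.41% of all probe sets (2345) and 2.77% of genes with 1 symbol. The mean was higher in MSC for 14 genes and lower for 22, or 61.1% lower, against 52.4% of all genes. When each array was centred on its median, that count turned to 14 lower and 22 higher, with 42.8% of all genes lower. The median difference, MSC minus vehicle on the log2 scale, was -0.0053 over the 36 and -0.0038 over all genes.

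The differences were small and fairly tightly bounded. For 27 of the 36 the difference was under 0.1 in either direction, and the 95% intervals reached 0.097 to 0.357 to each side. The interval excluded a 1.5-fold difference either way for 35 of the 36, all but C7, and for 21595 of 22093 genes. Values bunch at the dim end of an array, where changes read smaller than they are, and 11 of the 36 were dim: C1s, Cfi, C5ar1 and C6 of complement, Tap1, Psmb9 and Nlrc5 of class I, and Ciita, RT1-Da, RT1-Db1 and RT1-Ba of class II. In whole tissue, fewer cells of a type and less RNA per cell cannot be told apart.

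**Figure D1:**
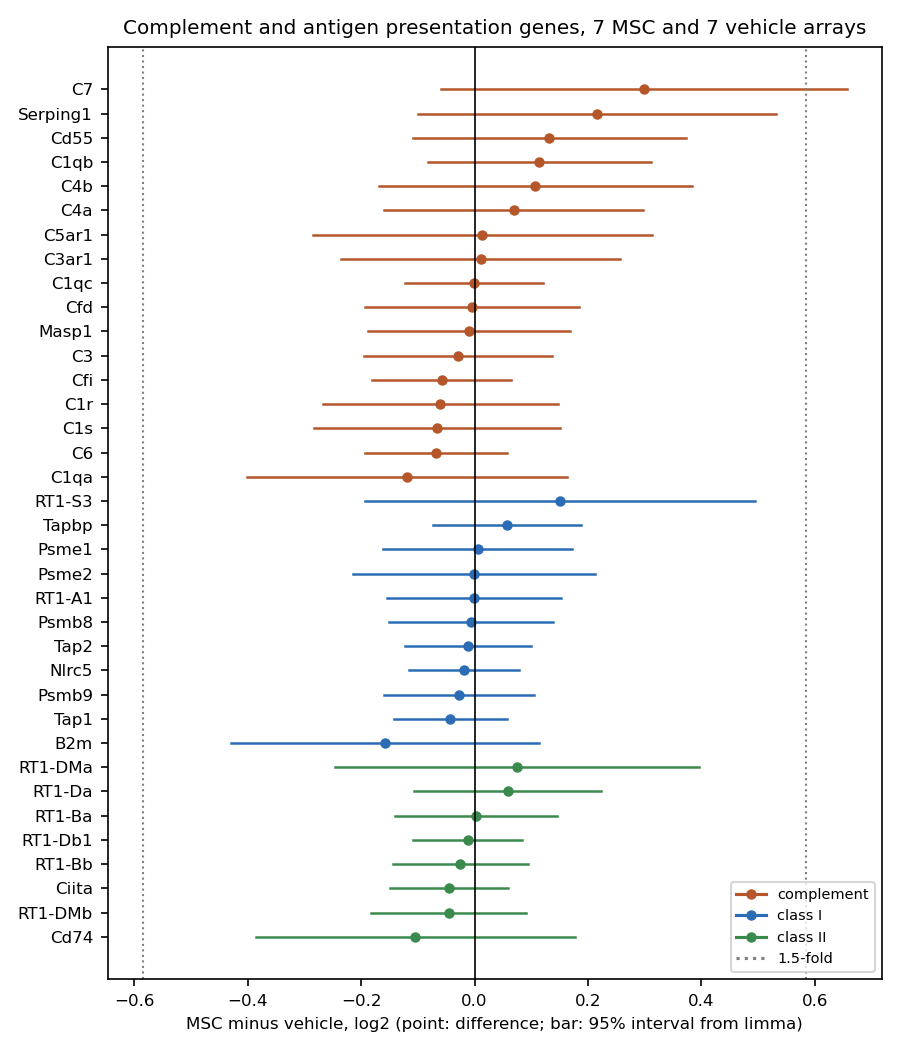
Difference between MSC and vehicle for the 36 measured genes (x axis, log2 RMA values, 7 arrays per group), with points for the difference and bars for the 95% interval from limma, coloured by group of genes. Every interval includes 0, and only that of C7, at -0.058 to 0.66, crosses the dotted line of a 1.5-fold difference.

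Of 20 complement genes 17 were measured, 8 higher and 9 lower in MSC, with a median difference of -0.0013 and a range from -0.12 for C1qa to 0.30 for C7. The spread of these 17 was wider than that of the measured presentation genes. The median SD over the 14 arrays was 0.197 for complement, 0.117 for class I and 0.113 for class II, against 0.132 over all genes. For 33 other complement genes, taken up further on, it was 0.12. Of those 33, 16 were dim, so this median does not show whether the wide spread extends to them. Dim genes were 4 of the 17 in complement, 3 of 11 in class I and 4 of 8 in class II. The cascade is taken here in the order in which it runs.

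C1q, the sensor that opens the classical pathway, is built from the chains of C1qa, C1qb and C1qc. C1qa ran from 9.55 to 9.997 with a median of 9.72 in MSC and from 9.42 to 10.5 with a median of 9.83 in vehicle, so the groups overlapped and vehicle held both the lowest and the highest array. The difference was -0.12 ± 0.13 (SE), and it moved from -0.020 without vehicle replicate 1, the highest array, to -0.20 without vehicle replicate 5, the lowest. Without the 3 arrays set apart it was -0.16. C1qb went the other way, at 8.19 ± 0.21 (SD, n = 7) in MSC and 8.07 ± 0.14 (SD, n = 7) in vehicle, a difference of 0.11 ± 0.093 (SE) that was within its spread and that moved from 0.074 without MSC replicate 2 to 0.17 without MSC replicate 4. C1qc, the steadiest complement gene, stayed between 6.11 and 6.39. The chains form 1 molecule, and their levels correlated weakly: Pearson's r over 14 arrays was 0.077 for C1qa and C1qb, -0.138 for C1qa and C1qc and 0.302 for C1qb and C1qc. Against the mean of 9 microglial markers r was -0.263 for C1qa, 0.21 for C1qb and 0.147 for C1qc, a relation looked up after the data were seen, with adjusted permutation p of 0.477, 0.553 and 0.613 over 13 such pairs.

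C1r and C1s are the proteases that C1q carries. C1r ranged from 7.11 to 7.79, with both ends in vehicle arrays, and C1s, which was dim, from 5.47 to 6.13. They correlated at r = 0.52 (rho 0.393), with an adjusted permutation p of 0.556 over the 19 pairs tested, and r was 0.306 without the 2 arrays farthest from the C1r median and 0.464 within replicates 1 to 5. Masp1, a protease of the lectin pathway, lay between 7.30 and 7.76. Serping1 encodes the C1 inhibitor, which blocks C1r, C1s and the Masp proteases. It ran from 6.996 to 7.71 with a median of 7.56 in MSC and from 6.79 to 7.76 with a median of 7.11 in vehicle. In MSC the arrays fell apart, with replicates 1 and 4 near 7.0 and the other 5 at 7.38 to 7.71, while vehicle replicate 2 was the highest of all 14. The difference was 0.22 ± 0.15 (SE; 95% interval -0.10 to 0.53), with a limma p of 0.166 and an adjusted p of 0.9999. Without the 3 arrays rich in choroid plexus or meningeal transcripts it was 0.34 ± 0.13 (SE), with a limma p of 0.023 and an adjusted p of 0.9999. Those 3 arrays include the highest vehicle array of Serping1 and both its lowest and its highest MSC array, so the larger difference partly follows from which arrays were dropped. Leaving out single arrays moved the difference from 0.15, without vehicle replicate 3, to 0.31, without vehicle replicate 2.

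C4 is cut by C1s to form part of the C3 convertase. C4a ran from 7.13 to 7.59 with a median of 7.41 in MSC and from 7.01 to 7.83 with a median of 7.28 in vehicle. C4b ran from 7.45 to 7.94 with a median of 7.73 in MSC and from 7.20 to 8.23 with a median of 7.60 in vehicle. Vehicle replicate 1 was the highest and vehicle replicate 4 the lowest array for both, so the vehicle group enclosed the MSC group. Their probe sets varied together, with r = 0.988 and rho = 0.987 over 14 arrays and a permutation p of 1e-05, the smallest that 100000 resamples can give, and r = 0.976 without the 2 arrays farthest from the C4a median. The genes are near copies, as their promoters above show, so the probe sets may read the same transcripts and do not count as separate measurements.

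After the data were seen, C4a was set beside Gfap, the astrocyte filament gene. Gfap varied from 9.82 in vehicle replicate 4 to 12.1 in vehicle replicate 1, the same arrays that mark the ends of C4a. Over 14 arrays r was 0.73 and rho 0.582, with adjusted permutation p of 0.0198 and 0.201 over the 13 such pairs. Without those 2 arrays r was 0.386, so the relation rests in part on them. With the mean of 6 astrocyte markers r was 0.779 and rho 0.565, with adjusted p of 0.0198 and 0.201, and r was 0.543 without the same 2 arrays. Within replicates 1 to 5 r was 0.696 for Gfap and 0.811 for the astrocyte mean. Replicates 1 to 5 include the same 2 arrays, so these values do not show whether the relation holds without them. Replicates 6 and 7 hold too few arrays for a value. Whether the share of astrocytes in the sample plays a part in C4 was not tested.

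**Figure D2:**
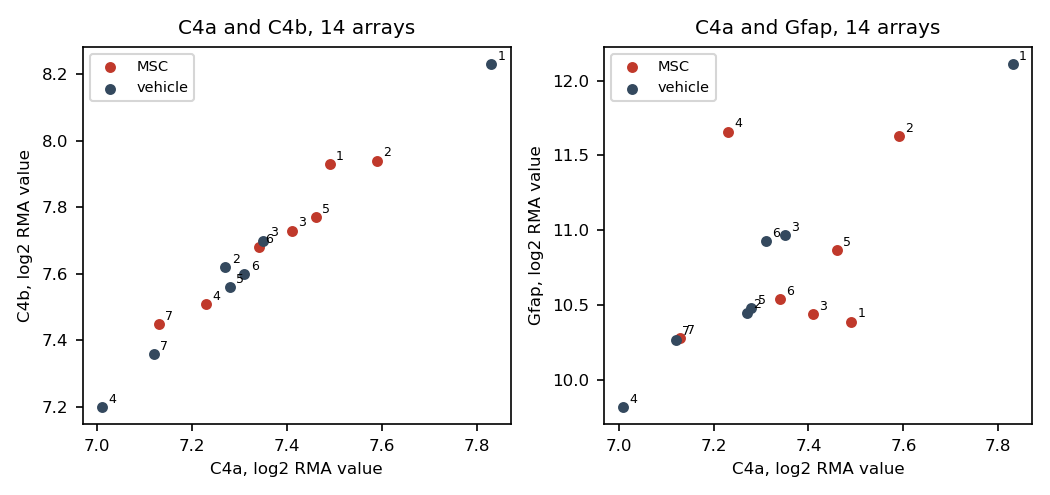
C4a (x axis) against C4b (left) and Gfap (right), log2 RMA values, 1 point per array with its replicate number and coloured by group. C4a and C4b lie close to a line (r = 0.988), while Gfap scatters more widely (r = 0.73) with vehicle replicates 1 and 4 at the corners.

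C3, the protein on which all routes meet, was 6.51 ± 0.15 (SD, n = 7) in MSC and 6.53 ± 0.14 (SD, n = 7) in vehicle. The difference was -0.029 ± 0.078 (SE), smaller than the spread in either group. Cfd, the factor D protease of the alternative pathway, was 6.30 ± 0.12 (SD, n = 7) in MSC and 6.31 ± 0.21 (SD, n = 7) in vehicle, with vehicle replicates 1 and 2 at its ends, at 6.04 and 6.67. Its difference was -0.0050 ± 0.089 (SE) and was 0.073 without the 3 arrays set apart above.

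Among the regulators, Cfi, the protease that breaks down C3b and C4b, was dim at 4.75 to 5.12. Cd55, which takes convertases apart on the cell's own membrane, lay at 6.70 to 7.50 in MSC, with replicate 2 at the top and the next at 7.10. In vehicle it lay between 6.78 and 6.88 in 6 arrays and at 6.48 in replicate 2. The 2 arrays with the brightest meningeal markers thus held the highest and the lowest value of Cd55. Of the receptors for the split products, C3ar1 ranged from 5.96 to 6.77 and C5ar1, which was dim, from 4.25 to 5.06.

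C6 and C7 belong to the pore that ends the cascade. C6 was dim, at 5.48 to 5.87. C7 had the widest spread of the set, with an SD of 0.37 over 14 arrays. Its values in MSC replicates 1 to 7 were 6.68, 6.97, 7.10, 7.34, 6.40, 6.86 and 6.25. In vehicle they were 6.40, 7.05, 6.58, 6.65, 6.09, 6.45 and 6.28. MSC held the highest array and vehicle the lowest, 5 of 7 MSC arrays lay above the vehicle mean, and the groups overlapped from 6.25 to 7.05. The means were 6.80 ± 0.38 (SD, n = 7) and 6.50 ± 0.31 (SD, n = 7), a difference of 0.30 ± 0.17 (SE; 95% interval -0.058 to 0.66) or 1.23-fold. This was the smallest limma p of the set, 0.095, with an adjusted p of 0.9999.

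The highest MSC array and the highest vehicle array of C7 were the 2 with the brightest choroid plexus markers. Vehicle replicates 3 and 4 came next on these markers, with means of 6.21 and 5.997. They also held the next-highest vehicle values of C7, and they were kept in the fit without 3 arrays. Without the 3 arrays set apart the difference was 0.25 ± 0.15 (SE). Leaving out single arrays moved it from 0.21, without MSC replicate 4, to 0.39, without MSC replicate 7. With MSC replicate 7, whose description names vehicle, counted as vehicle it was 0.42, with a limma p of 0.014 and an adjusted p of 0.9996. Since 2 arrays form a cluster of their own on each marker list, correlations with these lists were taken within the other 12 arrays, after the data were seen. There r was 0.235 (rho 0.315) for C7 with the choroid plexus markers and 0.037 (rho 0.252) with the meningeal ones. With the meningeal markers r was 0.411 (rho 0.126) for Serping1 and 0.472 (rho 0.545) for C1s. Over these 4 pairs the adjusted permutation p ran from 0.374 to 0.91 for r and from 0.285 to 0.701 for rho. Without the 2 arrays farthest from the median of the gene, r was 0.511, 0.285, 0.308 and 0.348 in the same order.

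**Figure D3:**
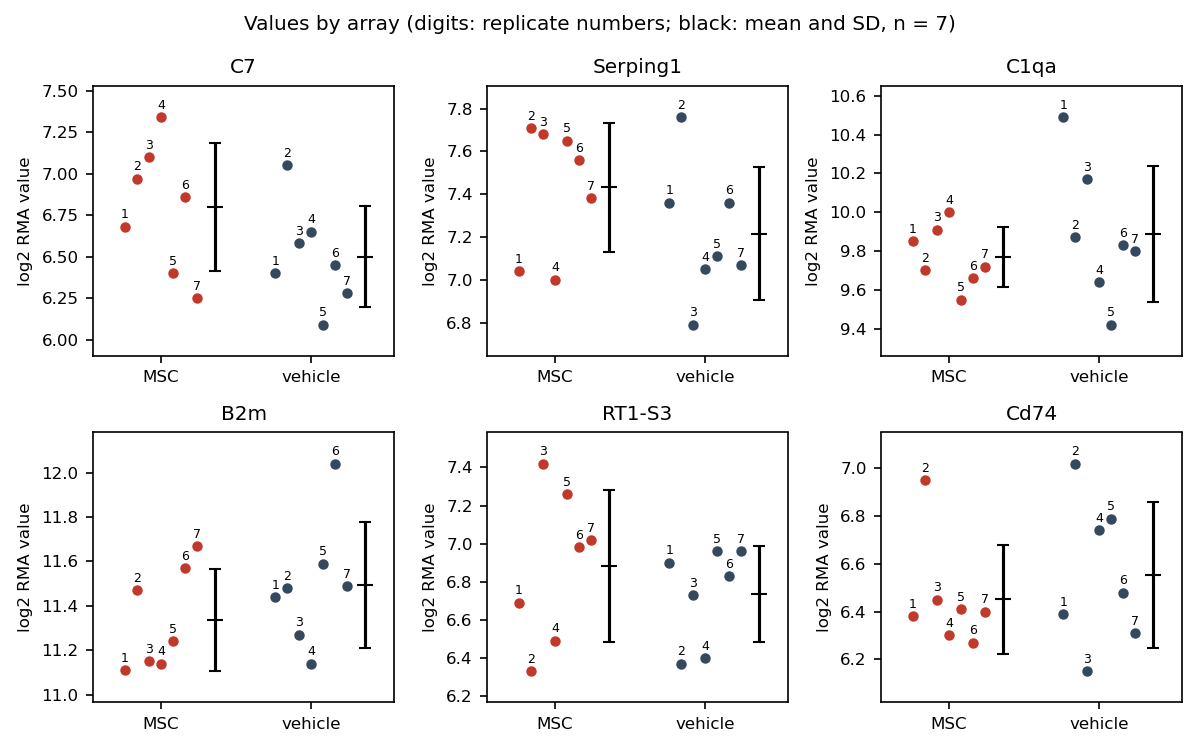
Values of 6 genes in each array (y axes, log2 RMA value, each panel on its own scale), with replicate numbers, and black lines for the mean and SD of 7 arrays. The groups overlap in every panel, and vehicle replicate 2 is the highest vehicle array for C7, Serping1 and Cd74.

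Of 14 class I genes 11 were measured, 3 higher and 8 lower in MSC, with a median difference of -0.0056 and a range from -0.16 for B2m to 0.15 for RT1-S3. With each array centred on its median, 4 of the 11 were lower. B2m encodes beta-2-microglobulin, the light chain that every class I molecule needs. It ran from 11.1 to 11.7 with a median of 11.2 in MSC and from 11.1 to 12.04 with a median of 11.5 in vehicle. Vehicle replicate 6 stood above the rest at 12.04, and MSC replicates 1, 3 and 4 and vehicle replicate 4 were the low arrays, at 11.11 to 11.15. The difference was -0.16 ± 0.13 (SE; 95% interval -0.43 to 0.11), with a limma p of 0.234 and an adjusted p of 0.9999, and it was -0.067 without vehicle replicate 6 and -0.24 with MSC replicate 7 counted as vehicle.

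RT1-A1 encodes the heavy chain of a classical class I molecule and RT1-S3 that of a non-classical one. RT1-A1 lay at 5.85 to 6.11 in MSC and 5.80 to 6.31 in vehicle, a difference of -0.0014 ± 0.072 (SE). RT1-S3 had an SD of 0.33 over the 14 arrays, the second widest of the set. In MSC replicates 1 to 7 it stood at 6.69, 6.33, 7.42, 6.49, 7.26, 6.98 and 7.02. In vehicle it stood at 6.90, 6.37, 6.73, 6.40, 6.96, 6.83 and 6.96. The 4 lowest arrays were replicates 2 and 4 of both groups, and the 4 highest were all MSC. The difference was 0.15 ± 0.16 (SE), with a limma p of 0.368. Without MSC replicates 2 and 4 and vehicle replicate 2 it was 0.28 ± 0.13 (SE), with a limma p of 0.060 and an adjusted p of 0.9999. That fit drops both low MSC arrays but keeps the low vehicle replicate 4. The larger difference thus partly follows from which arrays were dropped. Leaving out single arrays moved it from 0.060, without MSC replicate 3, to 0.24, without MSC replicate 2. Dropping MSC replicate 5 gave 0.088, dropping vehicle replicate 2 gave 0.090 and dropping vehicle replicate 4 gave 0.093. It was 0.091 with MSC replicate 7 counted as vehicle. RT1 genes are polymorphic and alike in sequence, so a probe set can read a neighbour or miss the allele of a strain, and values of single RT1 genes are uncertain.

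The next genes supply peptides. Tap1, a chain of the peptide transporter, was dim, at 5.55 to 5.77. Its difference was -0.043 ± 0.047 (SE), and it was -0.025 without MSC replicate 2 and -0.0053 without the 3 arrays set apart. Tap2, its partner, lay between 6.44 and 6.73. Tapbp encodes tapasin, which bridges class I molecules to the transporter, and differed by 0.057 ± 0.062 (SE), or by 0.025 without vehicle replicate 7, 0.033 without MSC replicate 3 and 0.034 without vehicle replicate 4. Psmb8, a subunit of the immunoproteasome, differed by -0.0056 ± 0.068 (SE). Psmb9, another such subunit, stayed between 5.60 and 5.94. Psme1 and Psme2, which encode an activator of the proteasome, lay at 8.05 to 8.55 and 8.75 to 9.54. Nlrc5, the class I coactivator, was dim and nearly flat, at 5.36 to 5.55.

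Pairs of class I genes that share machinery also correlated weakly. Tap1 and Psmb9 lie head to head, their 300-base promoter windows overlap by 44 bases, and r over 14 arrays was 0.147. For Psme1 and Psme2, whose products form 1 ring, r was -0.167, and for B2m and RT1-A1 it was 0.085. The kept Psme2 probe set and the other one carry identifiers of different chromosomes, so the kept one may not read the Psme2 gene itself, and with the other r was 0.205. For Tap2, Psmb8 and Psme2, which have further probe sets, those correlated with the kept one at 0.774 and 0.268, at 0.054 and at 0.083. Different probe sets of Psmb8 and of Psme2 thus had correlations close to 0.

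All 8 class II genes were measured, 3 higher and 5 lower in MSC, with a median difference of -0.019 and a range from -0.10 for Cd74 to 0.075 for RT1-DMa. With each array centred on its median, 4 of the 8 were lower. Ciita, the class II coactivator, was dim, at 5.11 to 5.35, with a difference of -0.046 ± 0.049 (SE), and its p of 0.366 was the smallest of the group. That difference moved from -0.070, without MSC replicate 3, to -0.030, without MSC replicate 7. The peptide-binding chains were dim or close to it. RT1-Da lay at 5.32 to 5.78 with a difference of 0.059 ± 0.078 (SE), which moved from 0.022 without MSC replicate 2 to 0.10 without vehicle replicate 2. It was 0.030 when vehicle replicate 1 was dropped, 0.027 when vehicle replicate 6 was, 0.0066 within replicates 1 to 5 and 0.073 ± 0.073 (SE) without the 3 arrays set apart. RT1-Db1, with the smallest SD of the set at 0.056, lay at 5.28 to 5.47. RT1-Ba lay at 5.31 to 5.86 and RT1-Bb at 5.87 to 6.20. RT1-Bb has another probe set, dim, which correlated with the kept one at 0.182. It was higher in MSC, where the kept one was lower.

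Cd74, the invariant chain, ran from 6.27 to 6.95 with a median of 6.40 in MSC and from 6.15 to 7.02 with a median of 6.48 in vehicle. The highest array was replicate 2 in each group, the same pair that held the brightest meningeal markers, and 6 of the 7 MSC arrays lay between 6.27 and 6.45. The difference was -0.10 ± 0.13 (SE), moving from -0.19 without MSC replicate 2 to -0.027 without vehicle replicate 2. Dropping vehicle replicate 5 gave -0.065 and dropping vehicle replicate 3 gave -0.17, and without the 3 arrays set apart it was -0.096 ± 0.11 (SE). RT1-Da also peaked in those arrays, at 5.78 in both. Cd74 and RT1-Da had the strongest correlation of the 19 pairs, r = 0.555 (permutation p 0.0404, adjusted 0.556) with rho = 0.262, and r was -0.008 without the 2 arrays, so the relation rests on them. The markers of macrophages at the brain's borders (Cd163, Mrc1, Lyve1, F13a1 and Pf4) were highest in the same arrays, at a mean of 6.34 and 6.22 against 5.90 to 6.18 elsewhere, and 4 of the 5 were higher in MSC. Looked up after the data were seen, the r of Cd74 with their mean was 0.43 (rho 0.323, adjusted permutation p 0.307 and 0.373), and it was -0.252 without replicate 2 of both groups.

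RT1-DMa and RT1-DMb encode the chaperone that loads peptide onto class II. RT1-DMa was high in MSC replicate 2 and vehicle replicate 5, at 8.87 and 8.96, and lay between 7.89 and 8.63 in the other arrays. RT1-DMb lay between 6.55 and 6.90, and the r between the chains was 0.249. The annotation marks the kept probe sets of both as unmapped on the genome. The mapped probe set correlated with the kept one at 0.819 for RT1-DMa and at 0.25 for RT1-DMb. By the mapped probe sets RT1-DMa was lower and RT1-DMb higher in MSC, opposite to the kept ones. The count of higher and lower class II genes thus depends on the probe sets kept.

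**Figure D4:**
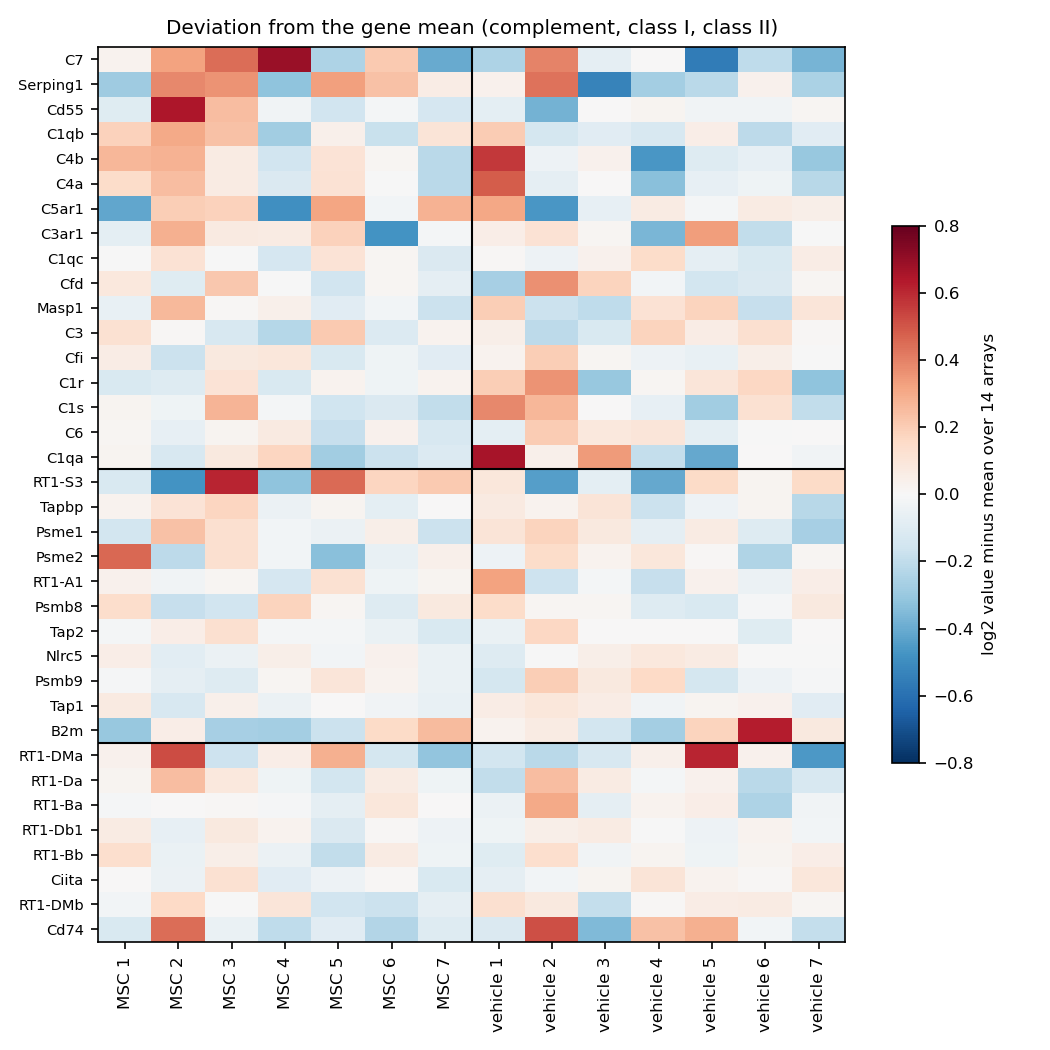
Deviation of each gene from its mean over 14 arrays (colour, log2), with genes in rows, grouped as complement, class I and class II, and arrays in columns, MSC on the left. The strong colours sit in single arrays of both groups, such as vehicle replicate 1 for C1qa, C4a and C4b.

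Over all 19 pairs of genes whose products work together, r ran from -0.341, for C1qa and C3, to 0.555. By adjusted permutation p 0 of them passed, with 1 below an unadjusted 0.05 by Pearson and 1 by Spearman, and the smallest adjusted p was 0.556 and 0.756.

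Wider lists of the same pathways also held no gene past the adjusted threshold. Of 33 other complement genes measured, 19 were higher and 14 lower in MSC with a median of 0.0076, and 0 passed at an adjusted or an unadjusted p of 0.05. Itgam, a chain of complement receptor 3 on microglia, had the smallest p of them, with a difference of 0.17 ± 0.084 (SE) and a p of 0.058. C8g, of the pore's C8, differed by 0.34 ± 0.20 (SE). Of 29 other presentation genes 13 were higher and 16 lower, with a median of -0.0093, and 0 passed at an adjusted or an unadjusted p of 0.05. Ifi30, a thiol reductase of the class II route, had the smallest limma p there, 0.117 (adjusted 0.9999), at 0.066 ± 0.039 (SE). Its groups did not overlap, at 6.80 to 6.88 in MSC and 6.69 to 6.79 in vehicle. Of 13 interferon gamma pathway genes 5 were higher and 8 lower, with a median of -0.0074. By adjusted p 0 passed, and 1 had an unadjusted p below 0.05, Gbp5, an interferon-induced GTPase, at -0.13 ± 0.059 (SE).

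Of the cells that carry these genes, microglial markers were 4 higher and 5 lower in MSC, with a median difference of -0.0018 and means per array of 7.18 to 7.45 in MSC and 7.24 to 7.39 in vehicle. Single markers went both ways. P2ry12, a purine receptor of resting microglia, differed by -0.28 ± 0.094 (SE), with an unadjusted p of 0.010 and an adjusted p of 0.9999, and lay below the vehicle mean in 7 of 7 MSC arrays. Itgam, given above at 0.17, lay above the vehicle mean in 7 of 7. Astrocyte markers were higher in 6 of 6 and endothelial markers lower in 5 of 5, with 0 of the 11 past the adjusted limma threshold. Cortical neuron markers were also higher in 5 of 5, with a median difference of 0.053, and 52.4% of all genes were lower. By unadjusted limma p, 0 astrocyte markers and 1 endothelial marker were below 0.05, against 2.77% of all genes. Endothelial means ran from 8.07 to 8.46 in MSC and from 8.30 to 8.77 in vehicle. Endothelial cells carry B2m, whose mean was also lower in MSC, and the r between B2m and these markers was 0.403 (rho 0.433, adjusted permutation p 0.307 and 0.27, chosen after the data were seen), with r = 0.393 without the 2 arrays farthest from the B2m median, 0.293 within groups and 0.683 within replicates 1 to 5. For RT1-S3 the r with the same markers was -0.175 (rho -0.037, adjusted permutation p 0.598 and 0.902). Whether the share of endothelial cells in the sample plays a part in B2m or RT1-S3 was not tested.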

How the data were processed

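Per the submitters' processing notes, the authors made the deposited log2 values with RMA in Affymetrix Expression Console; the sources used here give no versions or genome build. RMA subtracts background, equalises the arrays' distributions and summarises probes, which pulls small changes of dim probe sets towards 0 and can mask a shift common to most transcripts. Values ran from 2.74 to 19.9, and the scale of the brightest values is uncertain, and levels of different probe sets were not compared.

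Of 70580 probe sets, 1738 controls were left out, and 68842 were tested with limma 3.58.1 in R 4.3.3 (lmFit, eBayes, no covariate), two-sided, with Benjamini-Hochberg adjustment over all of them and a threshold of 0.05. Symbols came from the platform annotation: 23446 probe sets had 1 symbol, 505 several and 44891 none here. No 2 arrays held identical values. The number of arrays limits the precision. Correlations used permutation with 100000 resamples, and Dixon's ratio was used for single arrays.

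The genes and lists were chosen with earlier results of these data known. Differences are given for the 3 genes with the smallest p in each group and for C1qa, C3, Cfd, Serping1, B2m, RT1-A1, Tap1, Psmb8, Cd74, RT1-Da and Ciita. Other genes are given by level, and remarks on C4a, C4b, Cd55 and RT1-DMa in single arrays were chosen after their values were seen. From related lists at most 4 genes with the smallest p are named, and P2ry12 and Gfap were added after their values were seen. The limma script was tested on simulated data. Alternatives changed normalization, filters, blocks, weights, batches and left-out arrays.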

Additional observations from a re-analysis of the deposited data

Results flagged for a closer look

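Among 72 groups of 7 arrays, 1 per gene and treatment, 5 held a single array that stood apart by Dixon's ratio, where chance gives about 3.6. C4a in vehicle replicate 1 was 7.83, with the next vehicle array at 7.35. Cd55 in vehicle replicate 2 was 6.48, with the next at 6.78. Cd74 in MSC replicate 2 was 6.95, with the next at 6.45. RT1-DMb in vehicle replicate 3 was 6.55, with the next at 6.75. Tap2 in vehicle replicate 2 was 6.73, with the next at 6.57. Of the 5, 3 lay in replicate 2 of either group, the arrays with the brightest meningeal markers.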

How the results depend on the processing

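Under all alternatives 0 of the 36 genes passed the threshold by limma, with 0 to 2 below an unadjusted p of 0.05, and the smallest adjusted p of the 15 genes given with differences was 0.942. Of all probe sets 0 passed, except with replicates 6 and 7 only, where 1 did, a probe set unnamed here. The median difference ranged from -0.021 to 0.020 for complement, from -0.027 to 0.0094 for class I and from -0.035 to 0.0083 for class II, so none has a settled sign. Replicate numbers were not treated as pairs in the main fit. After the group mean of each probe set was subtracted, same-numbered arrays correlated at -0.312 to 0.274. By that measure 2 of 7 MSC arrays correlated best with their own number, which does not settle whether the numbers mark pairs. A replicate block over complete pairs cannot move a difference (the median of the 36 was -0.0053). It kept 0 past the threshold and 1 below an unadjusted p of 0.05, C7 (SE 0.096, p 0.012, adjusted 0.9999). Of the 15, 11 kept their sign in every alternative and 4 near 0 turned: Cfd, RT1-A1, Psmb8 and C3. With repeated quantile normalization Cfd was 0.0155, RT1-A1 0.0145 and Psmb8 0.0092, and with median centring 0.0101, 0.0136 and 0.0094. Cfd was 0.0175 with MSC replicate 7 counted as vehicle, 0.0185 in replicates 6 and 7 and 0.0728 without the 3 arrays set apart, a choice made after the data were seen, where RT1-A1 was 0.0032. Array weights gave 0.0113 for RT1-A1 and 0.0101 for Psmb8, and replicates 1 to 5 gave 0.0043, 0.0114 and, for C3, 0.0026. Leaving out single arrays gave -0.0488 to 0.0549 for Cfd, -0.0326 to 0.0521 for RT1-A1, -0.0357 to 0.0236 for Psmb8 and -0.0672 to 0.0057 for C3. In replicates 1 to 5 the r of B2m and Cd74 was 0.587, against 0.134 over all arrays. The cause of these turns was not tested. Signal near background limits the 11 dim genes.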
